A study of Homo sapiens with 6 samples.

Results

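The mitochondrial carriers of solute carrier family 25 (SLC25) were taken as every protein-coding gene of the deposited table whose symbol is SLC25A followed by a number. The rule found 47 genes among 36651 rows, and 33 of them reached a mean of 1 FPKM (fragments per unit of gene length and of library size) over the 6 libraries and were tested. SLC25A6 is not analysed here. Transcripts were measured by sequencing polyA RNA from HCT116, a human line of colorectal carcinoma cells with epithelial morphology. One group of 3 libraries is described by the submitters as siMTA, and the headers of the deposited values read siMTA1, the name used here. The titles of those samples read CrMTA1, which the labels do not explain. The other group of 3 libraries is called control in the descriptions and WT in the titles, and no control RNA or vector is named. MTA1 belongs to NuRD, which slides nucleosomes and deacetylates histones. The comparison asks how transcript levels differ between these groups.

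SLC25 proteins sit mostly in the inner mitochondrial membrane, where each moves a particular metabolite, nucleotide or ion between the cytosol and the matrix. They share a fold of repeated pairs of membrane helices and usually work by alternating access, exchanging a substrate on one side for another on the other side. Through them ATP leaves the matrix, phosphate and ADP enter it, and the carbon and nitrogen of amino acids, citrate and malate pass between compartments. They are encoded in the nucleus, made in the cytosol and mostly inserted through the TOM and TIM22 complexes.

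The level of MTA1 was 65.9, 67.61 and 66.74 FPKM in the control libraries and 44.55, 43.98 and 47.97 FPKM in the siMTA1 libraries, a log2 fold change of -0.54 (SE 0.055, limma adjusted p = 0.000376). The steps between low FPKM values implied 43300000 to 65400000 fragments per control library and 57400000 to 67100000 per siMTA1 library. The epithelial markers EPCAM, CDH1, KRT8, KRT18 and KRT19 summed to 6551 to 6864 FPKM in control and 5652 to 6297 FPKM with siMTA1. Fibroblast markers summed to 1.81 to 1.97 FPKM in control and 2.14 to 2.65 FPKM with siMTA1, nearly all of it COL1A1, and DCN was listed at 0 throughout. Leukocyte markers summed to 0.13 to 0.19 and 0.09 to 0.15 FPKM, and endothelial markers to 0.1 to 0.18 and 0.09 to 0.18 FPKM. The epithelial sum, most of it keratins, was lower and the fibroblast sum higher in every siMTA1 library. COL1A1 was not called (limma adjusted p = 0.0671). EPCAM (0.279) and KRT19 (0.310) were not called either, and their groups overlapped. Single epithelial markers went in both directions: KRT8 and KRT18 fell, while CDH1 rose from 28.56 to 34.63 FPKM (log2 fold change 0.27, limma adjusted p = 0.00874, called in 17 of 17 alternatives). The KRT8 call held in 15 and the KRT18 call in 10 of the 17. The part of these markers in the results on carriers was not tested. In bulk RNA, a lower level per cell and fewer cells with the transcript cannot be told apart. Because the labels do not describe the replicates as separate cultures, the p-values reflect only how these samples spread, and that spread may be technical.

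Of the 33 carriers tested, 7 were lower with siMTA1 and 0 were higher (limma, adjusted p under 0.05). The 7 are 21.2% of the tested members, beside 12.1% of all tested genes called lower and 6.13% called higher. At an unadjusted p under 0.05, 11 members were lower and 1 was higher. In 13 members (39.4%) all 3 siMTA1 values lay below all 3 control values, against 25.9% of all tested genes. In 2 members (6.06%) they all lay above, against 13.2% of all tested genes. The fold change was negative in 29 of the 33 members (87.9%) and in 61.7% of all tested genes. The members' median log2 fold change was -0.096, and that of all tested genes was -0.049. Differences within the family were small, from -0.36 to 0.20 on the log2(FPKM + 1) scale.

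The balance of lower and higher calls depended on how libraries were scaled. Of all called genes 33.7% were higher with the FPKM as deposited, and this share was 51.6% with upper-quartile scaling, 53.0% with quantile normalization and 53.7% with median centring, which was chosen after the data were seen. The number of lower members was then 2, 1 and 1 of 33, beside 7.73%, 7.37% and 7.38% of all tested genes called lower. The members' share of lower calls was then not above that of all tested genes. SLC25A25 was the 1 member called higher, beside 8.24%, 8.33% and 8.55% of all tested genes, under all 3 scalings. SLC25A38 was called lower under each of them, and SLC25A26 under upper-quartile scaling. Single libraries also mattered: 2, 1 and 3 of 33 members were lower when control library 1, 2 or 3 was left out. The number was 3, 0 and 2 when siMTA1 library 1, 2 or 3 was. Of all tested genes 9.82%, 5.4% and 8.45% were called lower without control library 1, 2 or 3. Without siMTA1 library 1, 2 or 3 the shares were 8.27%, 5.29% and 8.35%.

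**Figure D1:**
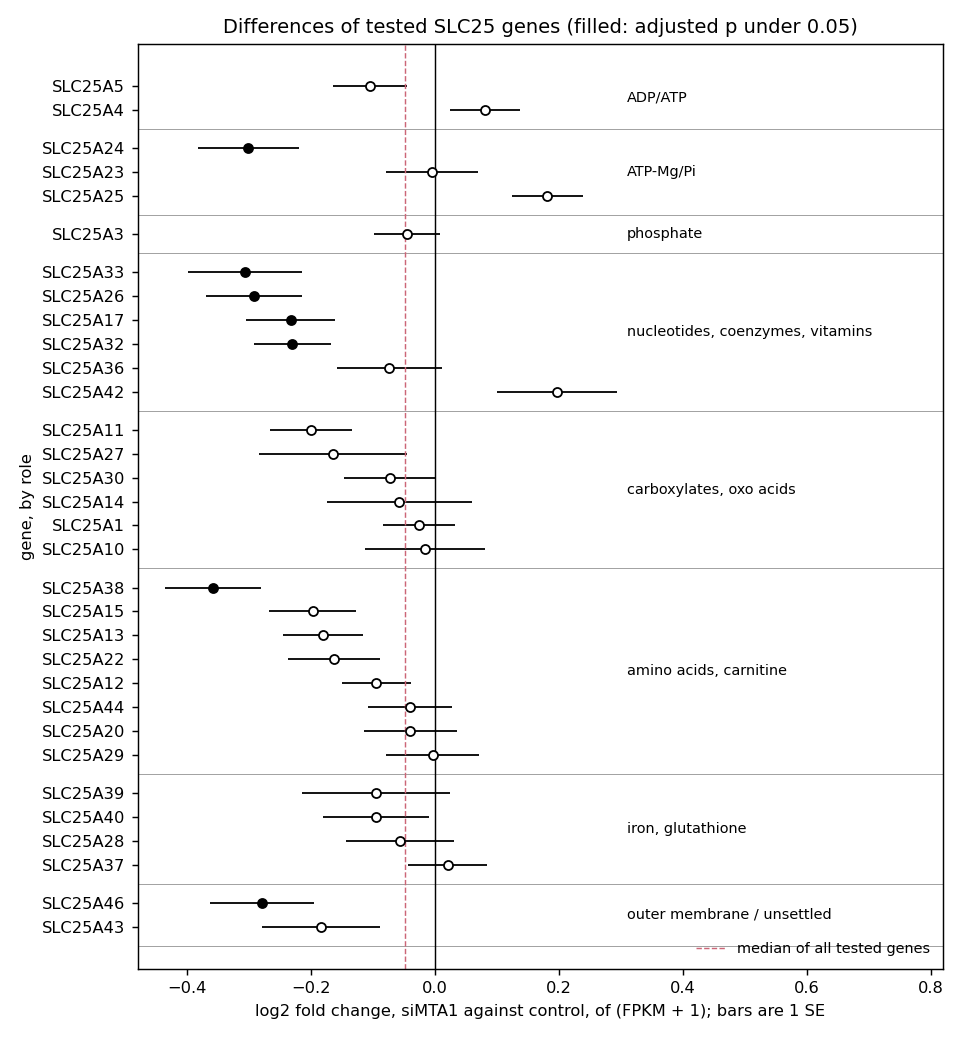
Log2 fold change of 32 tested SLC25 genes, siMTA1 against control, on the log2(FPKM + 1) scale, grouped by role and ordered by size within a role, with bars of 1 standard error and 3 libraries per group. Filled points mark the 7 carriers with an adjusted p under 0.05, which lie between -0.36 and -0.23, and 28 of the 32 points are below 0.

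Transcript levels spanned a wide range within the family. FPKM is scaled to gene length, so levels can be set beside each other across genes. The highest was SLC25A5, also known as ANT2, which exchanges matrix ATP for cytosolic ADP. It stood at 124.08, 128.52 and 138.46 FPKM in control, against 121.29, 117.08 and 124.7 FPKM with siMTA1. These groups overlapped, with a log2 fold change of -0.11 (SE 0.059, limma adjusted p = 0.237).

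SLC25A39, a carrier needed for mitochondrial glutathione, was next at 49.42, 60.14 and 70.43 FPKM in control, against 52.17, 52.15 and 62.84 FPKM with siMTA1. Its libraries spread most widely among these abundant carriers, and the groups overlapped (log2 fold change -0.096, SE 0.119, limma adjusted p = 0.599). SLC25A3, which brings phosphate into the matrix for ATP synthesis, read 31.93, 30.24 and 32.23 FPKM in control, against 30.17, 30.74 and 30.46 FPKM with siMTA1. SLC25A1, the citrate carrier that exports citrate for fatty acid synthesis, read 31.9, 30.22 and 31.33 FPKM and then 29.19, 30.21 and 32.41 FPKM. The levels of SLC25A3 and SLC25A1 did not differ beyond their spread, and both genes' groups overlapped (log2 fold change -0.045 and -0.026, limma adjusted p = 0.576 and 0.784). SLC25A37, or mitoferrin 1, which imports iron for heme and iron-sulfur cluster synthesis, ranked below these at 17.73, 15.99 and 18.19 FPKM in control, against 18.01, 16.93 and 17.68 FPKM with siMTA1. Its groups overlapped as well (log2 fold change 0.020, SE 0.063, limma adjusted p = 0.847). Summed over all 47 members, the family held 443.99, 456.39 and 488.45 FPKM in the control libraries and 428.21, 416.54 and 442.53 FPKM in the siMTA1 libraries. All 3 siMTA1 sums were lower than the control sums. These 47 members made up 0.106% to 0.121% of the FPKM of a library, and 0.112% in both control library 1 and siMTA1 library 3.

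**Figure D2:**
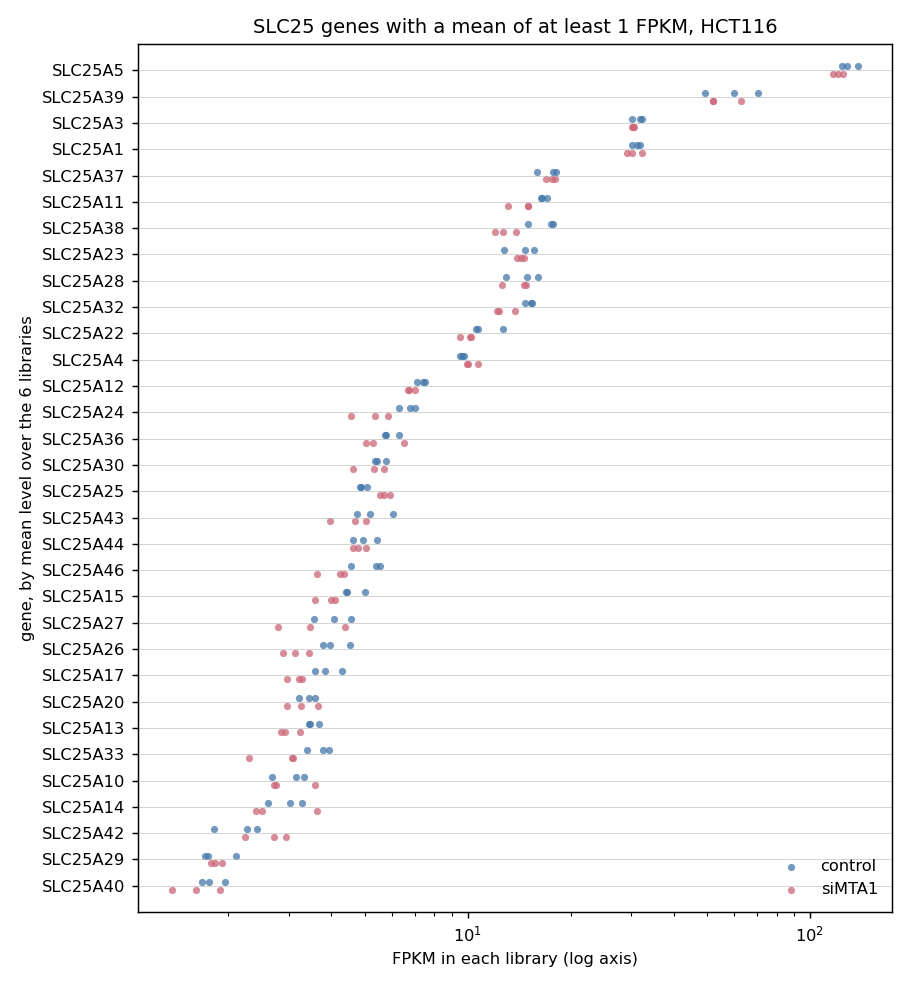
FPKM in each library, on a log axis, of 32 tested SLC25 genes, ordered by mean level, with control and siMTA1 libraries in different colours. SLC25A5 lies above 117 FPKM in every library, well above SLC25A39, and SLC25A40 has the lowest mean of these genes.

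SLC25A38, the carrier that brings glycine into the matrix for the first step of heme synthesis, had the lowest fold change of the tested members on the log2(FPKM + 1) scale. Relative to the control mean it was level with SLC25A33, at 76.6% and 76.1%, and with a pseudocount of 0.1 the log2 fold changes were -0.38 and -0.39. It stood at 15.03, 17.78 and 17.58 FPKM in control, against 12.69, 12.03 and 13.87 FPKM with siMTA1. Every siMTA1 library was below every control library, and the means were 16.8 ± 1.53 and 12.9 ± 0.932 FPKM (SD, n = 3 each). The log2 fold change was -0.36 (SE 0.078, limma adjusted p = 0.0140). The call ended without control library 2 (adjusted p = 0.0611), without siMTA1 library 2 (0.0580) and with no filter on low values (0.0902). It held in the other 14 of 17 alternatives.

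4 of the 7 tested carriers of nucleotides, coenzymes and vitamins fell, beside 12.1% of all tested genes, with a median log2 fold change of -0.23 over the 7 and -0.049 over all tested genes. Of the 4, SLC25A26 alone stayed called under upper-quartile scaling, and none did under quantile normalization, median centring or no filter on low values. SLC25A26 brings S-adenosylmethionine, the methyl donor, into mitochondria. It fell from 3.79, 3.96 and 4.52 FPKM in control to 3.45, 2.89 and 3.13 FPKM with siMTA1 (a log2 fold change of -0.29, SE 0.078, limma adjusted p = 0.0300). SLC25A32, the mitochondrial folate carrier also linked to FAD supply, fell from 15.47, 14.67 and 15.29 FPKM to 12.38, 12.17 and 13.78 FPKM (-0.23, SE 0.063, adjusted p = 0.0326). Neither gene's groups overlapped. SLC25A33 carries pyrimidine nucleotides into the matrix. It fell from 3.94, 3.78 and 3.39 FPKM to 3.09, 2.3 and 3.06 FPKM (-0.31, SE 0.092, adjusted p = 0.0460). SLC25A17, a peroxisomal carrier of coenzyme A, FAD and related cofactors, fell from 3.82, 3.58 and 4.29 FPKM to 3.29, 2.97 and 3.22 FPKM (-0.23, SE 0.072, adjusted p = 0.0499). SLC25A33 was lowest in siMTA1 library 2, and the groups of both genes stood apart.

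None of the other carriers of this group was called. SLC25A42, the coenzyme A carrier, had the highest fold change of the tested members, 0.20, with overlapping groups and an adjusted p of 0.178. SLC25A36, another pyrimidine nucleotide carrier, had a log2 fold change of -0.074 (adjusted p = 0.571).

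SLC25A46 acts in the outer membrane in mitochondrial dynamics and lipid handling and has no settled substrate. It fell from 5.55, 4.55 and 5.39 FPKM in control to 4.36, 3.62 and 4.24 FPKM with siMTA1 (a log2 fold change of -0.28, SE 0.084, limma adjusted p = 0.0460). All siMTA1 values were below all control values. The only other tested member with no settled substrate was SLC25A43, with a log2 fold change of -0.18 and overlapping groups (adjusted p = 0.197).

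**Figure D3:**
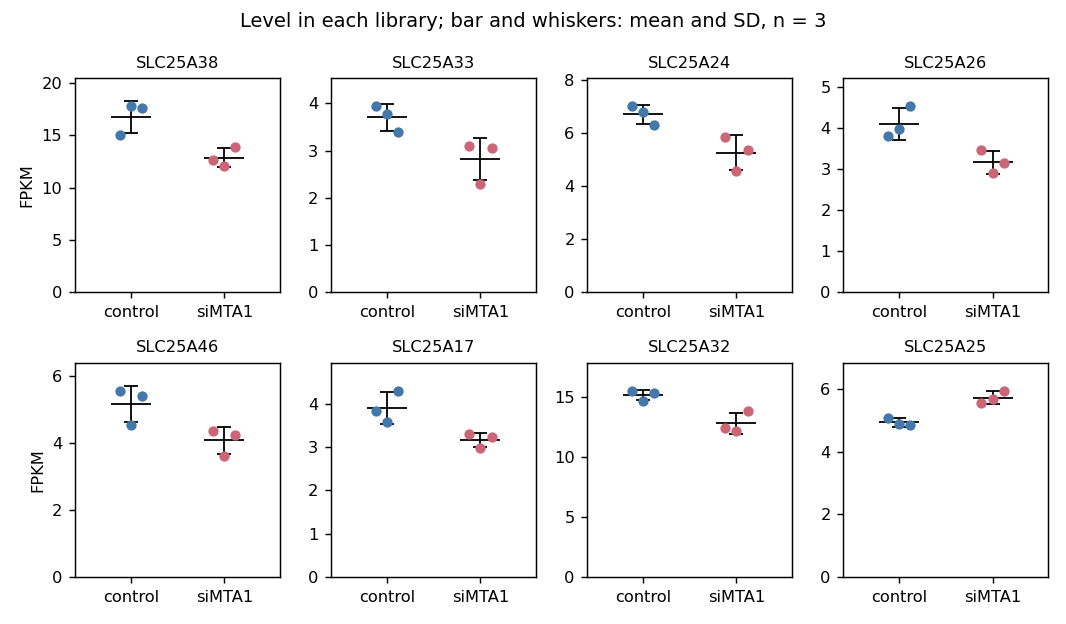
FPKM in each library of the 7 carriers that fell and of SLC25A25, 1 panel per gene with axes from 0, control libraries beside siMTA1 libraries and bars and whiskers at the group mean and SD. In each of the 7 panels the 3 siMTA1 values lie below the 3 control values, and in the SLC25A25 panel they lie above.

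Promoter sequence is shown for the carriers that fell and have a single start in the RefSeq promoter table (GRCh38.p14). A promoter was found there for 39 of the 47 members and for 6 of the 7 that fell. Each line gives the 250 bases before the RefSeq start, 5′ to 3′ on the strand of the gene. Capitals mark CCGGAAG or its reverse complement CTTCCGG, the core bound by ETS factors. SLC25A38 (chr3:39383120-39383369, plus strand), SLC25A46 (chr5:110738757-110739006, plus strand) and SLC25A17 (chr22:40819347-40819596, minus strand) hold these letters, and SLC25A33 (chr1:9539215-9539464, plus strand) does not.
SLC25A38: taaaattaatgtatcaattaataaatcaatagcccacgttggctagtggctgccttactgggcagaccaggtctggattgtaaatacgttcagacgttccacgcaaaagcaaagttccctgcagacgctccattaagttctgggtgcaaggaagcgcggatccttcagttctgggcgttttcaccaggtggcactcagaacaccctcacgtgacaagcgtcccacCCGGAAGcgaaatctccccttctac
SLC25A46: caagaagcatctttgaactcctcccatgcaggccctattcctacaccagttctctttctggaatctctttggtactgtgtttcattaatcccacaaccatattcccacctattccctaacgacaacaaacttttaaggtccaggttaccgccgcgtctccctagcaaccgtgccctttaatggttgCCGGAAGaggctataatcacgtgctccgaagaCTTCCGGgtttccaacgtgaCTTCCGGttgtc
SLC25A17: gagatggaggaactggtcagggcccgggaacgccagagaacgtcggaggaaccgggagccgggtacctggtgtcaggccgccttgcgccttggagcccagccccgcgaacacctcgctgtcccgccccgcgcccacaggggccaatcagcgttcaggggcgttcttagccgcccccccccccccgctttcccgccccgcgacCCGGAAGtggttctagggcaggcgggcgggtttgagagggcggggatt
SLC25A33: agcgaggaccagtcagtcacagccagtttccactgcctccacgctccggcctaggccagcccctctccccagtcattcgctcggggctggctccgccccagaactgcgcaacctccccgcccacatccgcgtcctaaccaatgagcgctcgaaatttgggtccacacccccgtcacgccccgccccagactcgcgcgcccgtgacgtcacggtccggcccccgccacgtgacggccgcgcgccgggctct

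The ETS letters stood in a promoter of 5 of the 6 fallen carriers (SLC25A17, SLC25A24, SLC25A26, SLC25A38 and SLC25A46), of 5 of the 23 tested carriers not called lower, and of 11 of the 39 members found (28.2%). They stood in 20.2% of tested protein-coding genes and in 10.2% of all 27305 genes with a RefSeq promoter. Counted per window rather than per gene, the share was 8.5% of all 35116 windows of this length. Genes with several starts, such as SLC25A24 and SLC25A26, have more windows in which letters can match. The match nearest the RefSeq start lay 25 bases before it in SLC25A38 and 48 bases before it in SLC25A17, and SLC25A46 held 3 matches. SLC25A25, which was not lower, also holds the letters. The E-box CACGTG was found in 4 of the 6 fallen carriers, 2 of the 23 tested carriers not called lower and 8 of the 39 members (20.5%). It stood in 11.5% of tested protein-coding genes, 7.7% of all genes with a RefSeq promoter and 6.3% of all windows. The GC box GGGCGG was found in 3 of the 6, 20 of the 23 (87.0%) and 74.4% of members. It stood in 77.9% of tested protein-coding genes, 46.2% of all genes with a RefSeq promoter and 42.6% of windows. CCAAT was found in 2 of the 6, 13 of the 23 (56.5%) and 48.7% of members. It stood in 41.8% of tested protein-coding genes, 37.0% of all genes with a RefSeq promoter and 32.0% of windows. TATAAA was found in 1 of the 6, 1 of the 23 (4.3%) and 7.7% of members. It stood in 7.0% of tested protein-coding genes, 13.0% of all genes with a RefSeq promoter and 10.7% of windows. Both strands were searched, the 5 motifs were chosen after the data were seen, and a match describes letters, not a bound site. The contrast of the 6 with the 23 is therefore no support for a part of any of these motifs, which was not tested. The 6 were also set by calls that changed with the scaling, and no share was computed for all genes called lower. GABPA, an ETS factor that acts on many mitochondrial genes, stood at 8.51 ± 0.77 FPKM in control, against 8.1 ± 0.19 FPKM with siMTA1 (SD, n = 3 each, limma adjusted p = 0.560).

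The ATP-Mg/phosphate carriers, which adjust the adenine nucleotide pool of the matrix and are mostly calcium-regulated, had differences of opposite sign. SLC25A24 fell from 7.01, 6.78 and 6.32 FPKM in control to 5.86, 4.57 and 5.37 FPKM with siMTA1 (a log2 fold change of -0.30, SE 0.082, limma adjusted p = 0.0316). SLC25A25 stood at 5.1, 4.88 and 4.85 FPKM in control, against 5.56, 5.71 and 5.95 FPKM with siMTA1 (0.18, SE 0.058, adjusted p = 0.0552). SLC25A25 was higher in every siMTA1 library, and it was the only member whose positive difference came near the threshold. SLC25A23, their paralog, read 12.75, 14.74 and 15.65 FPKM and then 14.34, 14.6 and 13.92 FPKM, a log2 fold change of -0.0044 (SE 0.074, adjusted p = 0.971). The ratio of SLC25A25 to SLC25A24, chosen after the values were seen, was 0.728, 0.72 and 0.767 in control and 0.949, 1.249 and 1.108 with siMTA1. It was higher in all siMTA1 libraries by 0.57 on the log2 scale (exact two-sided permutation p = 0.1, the smallest that 3 against 3 libraries allow, and 0.1 when adjusted over the 2 ratios computed). SLC25A24 was lower and SLC25A25 higher in every siMTA1 library, so the ratio had to separate the groups and this p was fixed by the choice. The adjustment does not cover the other pairs that could have been chosen, and the p is no support for a shift. Multiplying a library by a single factor leaves such a ratio as it is. SLC25A24 lost its call when control library 1 (adjusted p = 0.0753), control library 2 (0.0971), siMTA1 library 2 (0.0948) or siMTA1 library 3 (0.0579) was left out, and under upper-quartile scaling (0.0515), quantile normalization (0.0642), median centring (0.0554) and no filter (0.147). SLC25A25 was called higher in 5 of 17 alternatives.

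The ADP/ATP carriers showed no call. SLC25A4, the isoform typical of heart and muscle, read 9.62, 9.52 and 9.76 FPKM in control, against 10.76, 9.97 and 10.02 FPKM with siMTA1 (a log2 fold change of 0.081, SE 0.056, limma adjusted p = 0.337). Its ratio to SLC25A5 was 0.078, 0.074 and 0.07 in control and 0.089, 0.085 and 0.08 with siMTA1, 0.20 higher on the log2 scale (exact two-sided permutation p = 0.1, also 0.1 adjusted over the 2 ratios). All siMTA1 ratios lay above all control ratios, but this ratio too was chosen after the values were seen, so its p is no support either.

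Besides SLC25A38, 7 carriers of amino acids, ornithine and carnitine were tested and none was called, beside 12.1% of all tested genes called lower and 6.13% higher. The median log2 fold change of the 8 was -0.13, and the value was negative in each. Over all tested genes the median was -0.049, and 61.7% were negative. All siMTA1 values lay below all control values in 5 of the 8, against 25.9% of all tested genes. SLC25A15, the ornithine carrier of the urea cycle, read 5.0, 4.41 and 4.43 FPKM in control, against 4.09, 3.59 and 4.0 FPKM with siMTA1 (-0.20, limma adjusted p = 0.0767). SLC25A13, an aspartate/glutamate carrier of the malate-aspartate shuttle, read 3.68, 3.47 and 3.45 FPKM and then 2.85, 3.23 and 2.92 FPKM (-0.18, adjusted p = 0.0780). The groups did not overlap in either gene, nor in the glutamate carrier SLC25A22 (-0.16, adjusted p = 0.146) and the second aspartate/glutamate carrier SLC25A12 (-0.095, adjusted p = 0.254). SLC25A20, SLC25A29 and SLC25A44, which carry acylcarnitine, basic amino acids and branched-chain amino acids, lay between -0.041 and -0.0042, with overlapping groups.

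None of the 6 tested carriers of carboxylates and related anions was called, beside 12.1% of all tested genes called lower and 6.13% higher. Their median log2 fold change was -0.065, and that of all tested genes was -0.049. SLC25A11, the oxoglutarate/malate carrier of the malate-aspartate shuttle, came nearest, with 17.11, 16.49 and 16.36 FPKM in control, against 15.05, 15.02 and 13.1 FPKM with siMTA1 (-0.20, SE 0.066, limma adjusted p = 0.0603). Its groups did not overlap. In the others, SLC25A1, SLC25A10, SLC25A14, SLC25A27 and SLC25A30, they did. Over all tested genes 25.9% had every siMTA1 value below every control value. None of the 4 iron and glutathione carriers was called: SLC25A28, or mitoferrin 2, and SLC25A40 had log2 fold changes of -0.057 and -0.096, beside SLC25A37 and SLC25A39 above.

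The 14 members below 1 FPKM had means from 0.003 to 0.86 FPKM, and 7 of them were under 0.1 FPKM. Testing every gene with no filter called 0 of the 47 members (limma), beside 1.14% of all tested genes called lower and 0.9% higher. SLC25A16 was lower in every siMTA1 library, at 0.89, 0.9 and 1.0 FPKM in control, against 0.72, 0.82 and 0.83 FPKM with siMTA1. SLC25A41, a further ATP-Mg/phosphate carrier, was higher in each, at 0.47, 0.54 and 0.59 FPKM and then 0.7, 0.92 and 0.79 FPKM. With no filter their adjusted p was 0.544 and 0.201. SLC25A51, an NAD carrier, and SLC25A35 had means of 0.843 and 0.822 FPKM, and SLC25A21 and SLC25A45 of 0.313 and 0.227 FPKM. SLC25A48 was at 0.102 FPKM, and SLC25A34, SLC25A53, SLC25A2, SLC25A31, SLC25A52, SLC25A47 and SLC25A18 were near 0.

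In GENCODE 29 on GRCh38, SLC25A38 spans chr3:39383324-39397351, SLC25A26 chr3:66133610-66388116, SLC25A24 chr1:108134036-108200849, SLC25A33 chr1:9539482-9585179, SLC25A46 chr5:110738136-110765161 and SLC25A17 chr22:40769630-40819399. The 47 members lie on 19 chromosomes. SLC25A41 and SLC25A23 are adjacent on chromosome 19 on the same strand, 2299 bases apart, and SLC25A43 and SLC25A5 are 13921 bases apart on chromosome X. Exons of 19 members share bases with a gene on the other strand, and those of 6 with one on their own strand. SLC25A24, SLC25A26 and SLC25A32, 3 of the 7 that fell, are among the first. The libraries were directional, but the sources used here do not say whether counting used strand, so the levels of these genes are uncertain. DCAF13, the partner of SLC25A32, read 36.49 FPKM in control, against 30.43 FPKM with siMTA1 (a log2 fold change of -0.25, limma adjusted p = 0.0752), and LRIG1, the partner of SLC25A26, read 1.24 and 1.26 FPKM (adjusted p = 0.904). For SLC25A25 the partner NAIF1 read 4.36 and 3.75 FPKM (adjusted p = 0.124), the opposite sign to the carrier. Fragments from processed pseudogenes could also be shared with a carrier, and the pseudogene copies of SLC25A5 were each listed at no more than 0.08 FPKM.

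Related genes, among them other mitochondrial transporters and channels, carrier import genes, shuttle enzymes and regulators of biogenesis, were followed in 9 lists of 60 genes. In all, 54 were tested. Among these 10 were lower and 2 higher with siMTA1 (limma, adjusted p under 0.05), beside 12.1% and 6.13% of all tested genes. MPC1, a subunit of the mitochondrial pyruvate carrier, fell from 13.6 to 10.07 FPKM (log2 fold change -0.40, adjusted p = 0.00284). SFXN4, a sideroflexin linked to iron-sulfur cluster and complex I biogenesis, fell from 25.87 to 19.98 FPKM (-0.36, adjusted p = 0.00358). ME2, the mitochondrial malic enzyme, fell from 7.84 to 5.65 FPKM (-0.41, adjusted p = 0.00184). These 3 calls held in all 17 alternatives.

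Of the 16 genes for import of carriers, 3 fell, beside 12.1% of all tested genes, with a list median of -0.18 against -0.049 over all tested genes. TOMM22, the central receptor of the outer membrane translocase, fell from 35.2 to 30.0 FPKM (-0.22, limma adjusted p = 0.0190). TOMM6, a small subunit of that translocase, fell from 51.79 to 41.54 FPKM (-0.32, adjusted p = 0.0208). TIMM10B, a small TIM associated with TIM22, fell from 9.27 to 7.28 FPKM (-0.31, adjusted p = 0.0263). All 3 calls ended without control library 2 and without siMTA1 library 2, TOMM6 also without siMTA1 library 3, and TIMM10B also without control library 3 or siMTA1 library 1 and under quantile normalization. With no filter TOMM6 and TIMM10B were not called, and the highest adjusted p over the alternatives was 0.0781 for TOMM22, 0.110 for TOMM6 and 0.129 for TIMM10B.

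In the calcium uniporter list 2 of 6 fell, beside 12.1% of all tested genes: SMDT1, the regulator EMRE, from 3.1 to 2.18 FPKM (-0.37, limma adjusted p = 0.0139), and MCUB, from 10.17 to 8.4 FPKM (-0.25, adjusted p = 0.0478). The SMDT1 call ended without siMTA1 library 2 and with no filter (adjusted p up to 0.0905). The MCUB call held in 6 of 17 alternatives and in none of the 4 other scalings, and of the fits with 1 library left out it held in the one without control library 3 (adjusted p up to 0.175). Among the ABC transporters, ABCB6 rose from 6.12 to 7.47 FPKM (0.25, adjusted p = 0.0205). The ABCB6 call held in 12 of 17 alternatives and ended without control library 1 or 2, without siMTA1 library 1 or 2 and with no filter (adjusted p up to 0.0691).

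Of the 9 shuttle enzymes, GOT1, the cytosolic aspartate aminotransferase, rose from 46.96 to 54.0 FPKM (0.20, limma adjusted p = 0.0482, held in 10 of 17 alternatives), and ME2 fell as above. Over all tested genes 12.1% were called lower and 6.13% higher. The GOT1 call ended with any 1 library left out other than siMTA1 library 1 (adjusted p up to 0.154). Of 7 tested regulators of mitochondrial biogenesis 1 fell, beside the same 12.1% of all tested genes. It was TFB2M, a mitochondrial transcription factor, which fell from 21.28 to 16.63 FPKM (-0.33, adjusted p = 0.0257, held in 11 of 17). The TFB2M call ended without control library 2, without any of the siMTA1 libraries, with no filter and under quantile normalization (adjusted p up to 0.134). None of the 3 VDAC channels of the outer membrane and none of the 3 SLC25 relatives with other symbols (UCP2, MTCH1 and MTCH2) was called, with list medians of -0.086 and 0.065. Without control library 2 the lists together had 4 lower calls and 0 higher, and without siMTA1 library 2 they had 3 and 0. Of all tested genes 5.4% and 5.29% were called lower in these fits, and 3.22% and 3.5% higher.

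**Figure D4:**
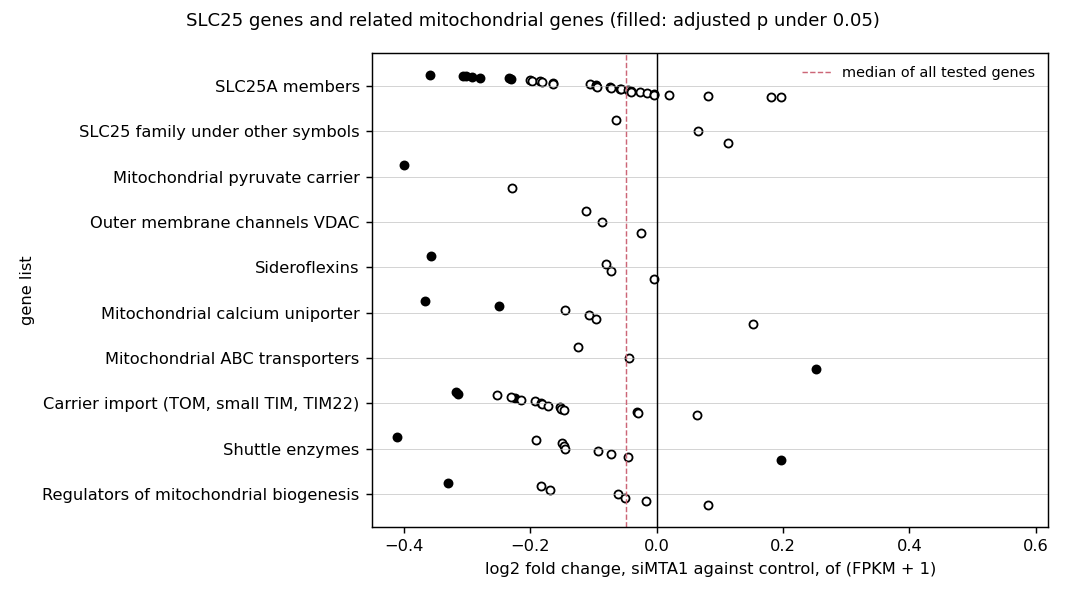
Log2 fold change, siMTA1 against control, of 32 SLC25 members and of 53 genes in 9 related mitochondrial lists, 1 row per list, filled where the adjusted p was under 0.05, with a dashed line at the median of all tested genes. In the related lists 9 filled points lie below 0 and 2 above, and the 3 relatives with other symbols are open points.

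How often each carrier was called over the alternatives separated SLC25A38 from the others. It was called lower in 14 of 17 alternatives, SLC25A24 in 9 of 17, SLC25A32 in 8 of 17, SLC25A26 in 9 of 16, SLC25A33 in 6 of 16, SLC25A46 in 5 of 16 and SLC25A17 in 3 of 16. Those below a mean of 5 FPKM were not tested under the stricter filter. When 1 library was left out, SLC25A26 kept its call without control library 1 or siMTA1 library 1, SLC25A32 without siMTA1 library 3, SLC25A33 without control library 3 and SLC25A46 without control library 2. In every other such fit the calls of these 4 ended, and SLC25A17 lost its call in all 6. Over these fits the adjusted p was 0.0314 to 0.103 for SLC25A26, 0.0224 to 0.110 for SLC25A32, 0.0478 to 0.127 for SLC25A33, 0.0394 to 0.149 for SLC25A46 and 0.0651 to 0.150 for SLC25A17. The fold changes of the 7 were negative in every alternative in which they were tested.

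**Figure D5:**
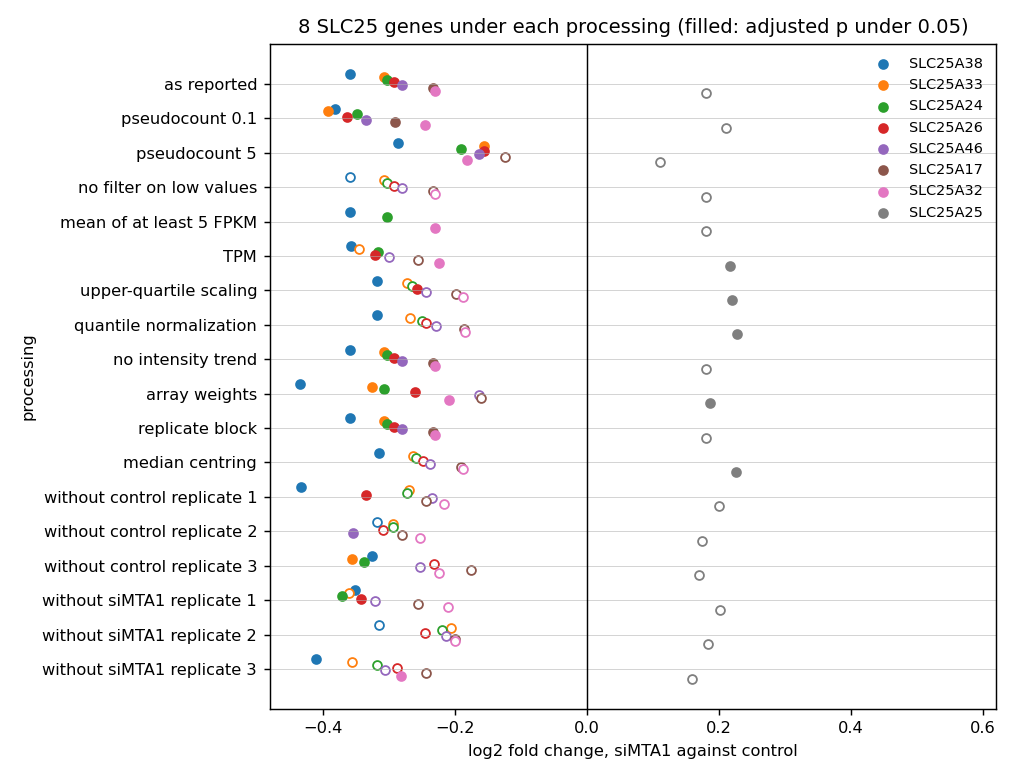
Log2 fold change, siMTA1 against control, of the 7 fallen carriers and SLC25A25 as reported and under each alternative, 1 row per alternative and filled where the adjusted p was under 0.05. The 7 lie below 0 wherever they were tested, SLC25A38 is called under most alternatives, and without siMTA1 library 2 none of the carriers is called.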

How the data were processed

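The labels' protocols describe polyA selection, directional library preparation and paired-end sequencing for 3 control and 3 siMTA1 samples of HCT116. The submitters' processing notes name cutadapt, TopHat2, edgeR and the build GRCh38, with no version or role. The authors deposited 1 table of FPKM per gene, printed to 2 decimals; the sources used here do not give the counting method, annotation or use of strand. FPKM are not counts, so limma 3.58.1 in R 4.3.3 was run on log2(FPKM + 1), with an intensity trend, over the 12141 genes whose mean reached 1 FPKM, two-sided, adjusted by Benjamini-Hochberg over all of them and called at an adjusted p under 0.05. A fold change on this scale understates changes of low genes.

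The members and lists were chosen with earlier results of these data known. Values in each library are given for called members, for the 5 highest and for those with an adjusted p of 0.05 to 0.1. Of each list the called genes are named. The values of 1 such member and 1 such listed gene are not reported here, and neither is drawn, although counts and medians include both. Loci and exon overlaps come from GENCODE 29, in which 35749 identifiers were found. Depth was inferred from the steps of low FPKM values in genes with up to 150 exonic bases, and 94.9% to 97.5% of them were whole within 0.05 of a unit beyond rounding. Alternatives were other pseudocounts, filters, scalings and limma settings, a replicate block and each library left out. Tables and figures used Python 3.11.15, pandas 2.3.3 and matplotlib 3.10.9.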

Additional observations from a re-analysis of the deposited data

How the results depend on the processing

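Over all genes, the deposited scaling gave 1463 lower and 744 higher calls (2207 in all). With no filter on low values these were 379 and 297 (676 in all), and with array weights 2615 and 1434 (4049 in all). The lower calls were 939 with upper-quartile scaling, 895 with quantile normalization and 896 with median centring, which was chosen after the data were seen. Among carriers, 7 lower and 0 higher became 0 lower with no filter, 4 with a mean of at least 5 FPKM, 4 lower and 1 higher with TPM, 2 and 1 with upper-quartile scaling, 1 and 1 with quantile normalization, 1 and 1 with median centring, and 7 and 1 with array weights. The carriers tested were 47 with no filter, 17 with a mean of at least 5 FPKM and 33 otherwise. Of all tested genes, 1.14% were lower with no filter, 16.13% with a mean of at least 5 FPKM and 10.13% with TPM. The share lower was 7.73%, 7.37% and 7.38% with upper-quartile, quantile and median scaling, and 21.54% with array weights. Leaving out 1 library gave 1046 to 1773 calls over all genes, 642 to 1191 of them lower and 391 to 633 higher. Lower calls were then 5.29% to 9.82% of all tested genes, and 0 to 3 carriers were lower and 0 higher. Of the named carriers' fold changes, 205 stayed on their side of the threshold over the alternatives, 61 lost the call, 10 gained it and 6 changed sign. Many of the 205 belong to carriers that were not called and had no call to lose. Among the 7 called carriers, SLC25A38, SLC25A24 and SLC25A26 kept the call in most of their alternatives. SLC25A32, SLC25A33, SLC25A46 and SLC25A17 lost it in most. SLC25A1 was 0.018, 0.019 and 0.018 under upper-quartile, quantile and median scaling. With 1 library left out SLC25A1 ranged from -0.066 to 0.007 (without siMTA1 library 1), SLC25A37 from -0.033 (without control library 2) to 0.055 and SLC25A39 from -0.226 to 0.025 (without control library 3). The cause was not tested. MTA1 was called in all 17 alternatives.

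With the replicate number as a replicate block, 10 carriers were lower and 0 higher. Over all tested genes 2039 were lower (16.79%) and 992 higher (8.17%). The numbers were not treated as pairing the samples, and these values do not settle whether they do. Same-numbered libraries deviated together with r = 0.331, 0.022 and 0.219 across genes. The values for numbers 1 and 3 were the highest of all pairs. The lowest were control library 3 with siMTA1 library 1 (r = -0.277) and control library 1 with siMTA1 library 3 (r = -0.254). Control library 2 correlated best with siMTA1 library 3 (r = 0.071). No exact test of 3 against 3 libraries can go below p = 0.1, and no counting error was computed, since the table gives FPKM and the depths are inferred.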
